A study of Mus with 6 samples.

Results

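The 8 genes described here, Cacna1a, Cacna1b, Cacna1c, Cacna1d, Cacna1e, Cacna1g, Cacna1h and Cacna1i, encode pore-forming alpha1 subunits of voltage-gated calcium channels. They were taken by gene name from a table of 54532 genes, and each name matched a single row. RNA had been sequenced from mouse tissue labelled basolateral amygdala, in 3 wild-type libraries (WT) and 3 libraries from Cntnap4 knockout mice (KO). Cntnap4 encodes a cell adhesion protein of neurons, and the comparison asks which transcripts differ between the genotypes. All 6 samples are labelled male. The series title names a bacterial treatment, and no such treatment is among the labels of these samples. The sources used here do not give age, strain background, the deleted part of Cntnap4 or whether each library came from a separate mouse. P-values therefore measure the spread between these samples, which may in part be technical.

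A voltage-gated calcium channel opens on depolarization and lets calcium into the cell, and its alpha1 subunit carries the pore, the voltage sensor and most drug binding sites. The family falls into 3 branches. Cav1 or L-type channels couple depolarization to signalling in cell bodies and dendrites. Cav2 channels, of P/Q, N and R type, admit the calcium that triggers transmitter release at many nerve terminals. Cav3 or T-type channels open at small depolarizations and shape burst firing, for example in thalamus. Auxiliary beta and alpha2delta subunits help Cav1 and Cav2 pores reach the membrane and tune their gating.

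Libraries held 17647556 to 20813211 reads in genes. Levels are given in FPKM, fragments per kilobase of a gene, as deposited with the authors' scaling of each library. Cntnap4 itself was at 2.03, 3.59 and 4.91 FPKM across the WT libraries, replicates 1 to 3, and at 1.61, 1.00 and 1.48 across the KO libraries. The library labelled KO replicate 1 went against its labelled sex, with Xist at 43.0 FPKM and 0 reads on 4 Y-linked genes, where the other 5 had at most 0.0346 FPKM and 2831 to 4001 reads. KO replicate 2 stood apart in regional markers. It held the vasopressin gene Avp at 2.20 FPKM, against 325 to 894 FPKM in the other 5 libraries. It also held the vesicular glutamate transporter gene Slc17a7 at 94.3 FPKM. Slc17a7 was at 5.37 to 6.42 FPKM in WT and at 21.4 and 19.1 in KO replicates 1 and 3, so all 3 KO libraries lay above WT. KO replicate 3 departed in a regional marker too. The oxytocin gene Oxt was at 12.5 FPKM there and at 0.103 in KO replicate 2. It was at 133 to 209 FPKM in WT and at 168 in KO replicate 1. Rspo2, a marker of basolateral amygdala projection neurons, was at 0.378 to 0.522 FPKM in WT and 0.718 to 1.09 in KO. The values below are those of the tissue pieces as dissected. In bulk tissue, fewer cells of a type and less RNA per cell cannot be told apart.

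All 8 pore genes were expressed, and none of the 8 passed the test between genotypes (limma-trend, adjusted p over 16155 genes from 0.282 to 0.673). Over all genes tested, 0.0124% passed. These were 2 short genes with few reads, Scarna17 (1 to 5 reads per library) and Gm44455 (0 to 3). Cntnap4, the targeted gene, did not pass either (limma adjusted p = 0.220). Without adjustment, Cacna1h and Cacna1i had p under 0.05, which is 2 of 8 genes where 15.2% of all genes tested reached that level. Only Cacna1h had 3 KO values all above the 3 WT values, 1 of 8 genes where 22.6% of all genes had groups that did not overlap in either direction and 11.8% had KO above WT. These shares of the family are of the order of the background. Voom, a count-based weighting in limma applied to the recovered reads, also called 0 of 8 after adjustment. It gave 3 an unadjusted p under 0.05 (16.4% of all genes), Cacna1c besides Cacna1h and Cacna1i. Without KO replicate 2, limma gave 0 of 8 an unadjusted p under 0.05 (13.3% of all genes), and without KO replicate 1 it gave 3 of 8 (13.9% of all genes), with 0 passing after adjustment in either case. The KO mean was above the WT mean in 7 genes and below it in Cacna1g. The median log2 difference (KO minus WT, on log2(FPKM + 0.5)) was 0.18 over the 8 genes and 0.01 over all genes tested, of which 51.5% were higher in KO.

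**Figure D1:**
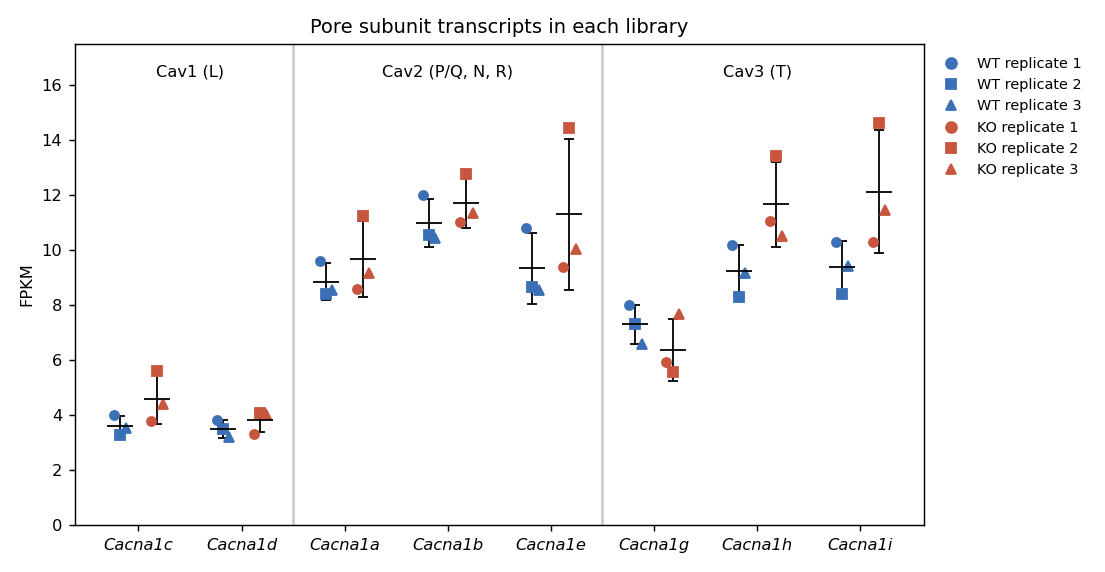
FPKM of the 8 pore subunit genes in each library, grouped by channel branch; points are libraries, horizontal bars are group means and error bars are SD (n = 3 per group). KO replicate 2 is the highest library for 7 genes and the lowest for Cacna1g, and only Cacna1h has no overlap between the groups.

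The levels fell into an upper set of 5 genes, Cacna1g below it, and the pair of L-type genes at the bottom. By mean over the 6 libraries the order was Cacna1b (11.4 FPKM), Cacna1i (10.8), Cacna1h (10.4), Cacna1e (10.3), Cacna1a (9.26), Cacna1g (6.84), Cacna1c (4.10) and Cacna1d (3.65). The upper 5 overlapped with their neighbours in this order, and Cacna1h was above Cacna1e in 3 of 6 libraries. Cacna1a was above Cacna1g in 6 of 6 libraries, and their values did not overlap (lowest 8.39 against highest 8.005 FPKM). Cacna1g was above Cacna1c in 5 of 6 libraries, the exception being KO replicate 2, where they measured 5.55 and 5.61 FPKM. FPKM divides by the deposited gene length, which was 25228 bases for Cacna1e and 21191 for Cacna1c but 9763 to 12621 for the other 6. Before that division Cacna1e had the most reads, 3920 to 6601 per library, and Cacna1d the fewest, 787 to 933. At these depths the counting error of a single value was 1.23% to 3.56% of it, less than the spread between WT libraries, which was 7.47% to 13.7% of the mean. Counting intervals cover counting error only.

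Among the T-type genes, Cacna1h and Cacna1i had positive differences and Cacna1g a negative one. Cacna1h, the Cav3.2 pore (ENSMUSG00000024112, chromosome 17, 25374285 to 25433783, minus strand, GRCm38), stood at 10.2, 8.29 and 9.18 FPKM across WT replicates 1 to 3 and at 11.1, 13.4 and 10.5 FPKM across KO replicates 1 to 3. Every KO library lay above every WT library, and the nearest pair were KO replicate 3 and WT replicate 1. The means were 9.22 ± 0.954 and 11.7 ± 1.55 FPKM (SD, n = 3 each), a log2 difference of 0.32 ± 0.12 (SE; 95% interval 0.05 to 0.59; limma adjusted p = 0.282). An exact permutation test (two-sided) gave p = 0.1, and 3 against 3 samples cannot give a smaller one. For the other 7 pore genes the same exact test gave p from 0.2 to 0.5. Without KO replicate 2 the difference was 0.22, and without KO replicate 1 it was 0.35.

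Cacna1i, the Cav3.3 pore (ENSMUSG00000022416, chromosome 15, 80287238 to 80398279, plus strand), is known for its expression in the thalamic reticular nucleus. It stood at 10.3, 8.40 and 9.43 FPKM across WT replicates 1 to 3 and at 10.3, 14.6 and 11.5 FPKM across KO replicates 1 to 3. KO replicate 2 stood well above the rest, while KO replicate 1 fell just under WT replicate 1 (10.29 against 10.30 FPKM), so the groups overlapped. The means were 9.38 ± 0.951 and 12.1 ± 2.25 FPKM, a log2 difference of 0.34 ± 0.14 (95% interval 0.02 to 0.67; limma adjusted p = 0.308). Leaving out KO replicate 2 took this to 0.21, a change by more than 1.5 times, with no effect on the call.

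Cacna1g, the Cav3.1 pore of thalamic relay neurons and other burst-firing cells, was the pore gene with a lower mean in KO. The gene (ENSMUSG00000020866, chromosome 11, 94408391 to 94474198, minus strand) stood at 8.005, 7.32 and 6.58 FPKM across WT replicates 1 to 3 and at 5.92, 5.55 and 7.66 FPKM across KO replicates 1 to 3. KO replicates 1 and 2 lay below all WT libraries, and KO replicate 3 lay above WT replicates 2 and 3. The means were 7.30 ± 0.715 and 6.38 ± 1.13 FPKM, and the log2 difference was -0.19 ± 0.13 (95% interval -0.50 to 0.12; limma adjusted p = 0.524). Leaving out KO replicate 3 gave -0.32, and leaving out KO replicate 2 gave -0.10.

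The balance among the T-type genes followed from these values. The ratio of Cacna1i to Cacna1g in FPKM came to 1.29, 1.15 and 1.43 across WT replicates 1 to 3 and to 1.74, 2.64 and 1.498 across KO replicates 1 to 3, with no overlap between the groups. The ratio of Cacna1h to Cacna1g came to 1.27, 1.13 and 1.40 across WT replicates 1 to 3 and to 1.87, 2.42 and 1.37 across KO replicates 1 to 3, and there KO replicate 3 lay within the WT range. These ratios were looked at after the values were seen and were not tested. The summed T-type level was 25.9 ± 2.33 FPKM in WT and 30.2 ± 3.21 in KO, and it made up 41.7% ± 0.625 and 42.4% ± 1.16 of the family's summed FPKM.

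**Figure D2:**
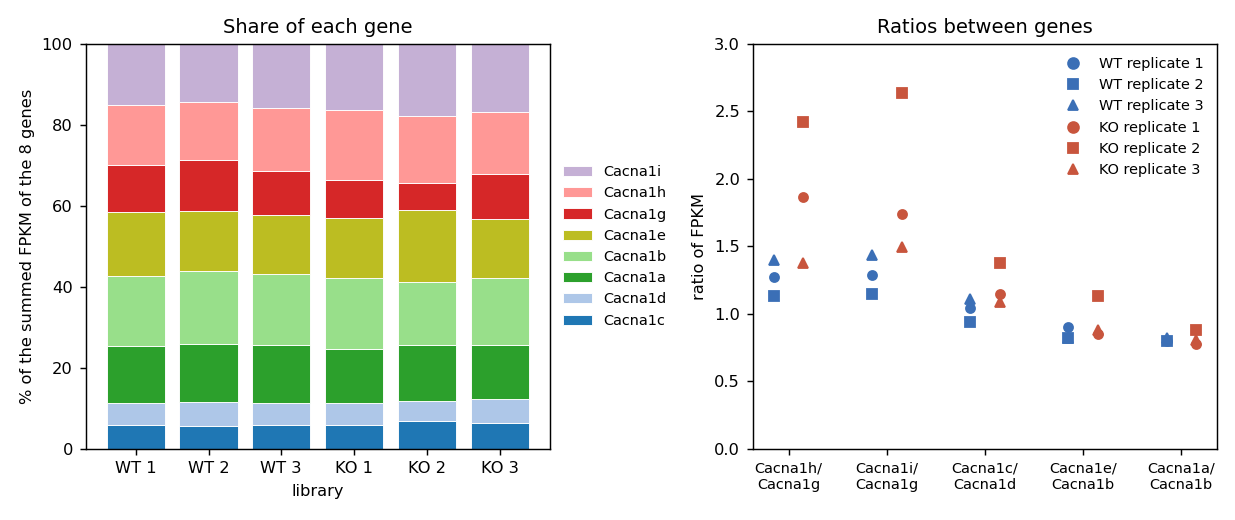
Left, the share of each gene in the summed FPKM of the 8 pore genes, per library; right, ratios of FPKM between pairs of pore genes, one point per library. Cacna1g takes 11.1% to 12.6% in WT and 6.79% to 11.2% in KO, and KO replicate 2 has the highest ratio in all 5 pairs.

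The Cav2 genes, whose channels supply calcium for transmitter release, all overlapped between the groups. Cacna1b, the N-type pore (ENSMUSG00000004113, chromosome 2, 24603887 to 24763152, minus strand), stood at 11.99, 10.5 and 10.4 FPKM across WT replicates 1 to 3 and at 11.0, 12.8 and 11.4 FPKM across KO replicates 1 to 3. WT replicate 1 exceeded KO replicates 1 and 3. The means were 11.0 ± 0.872 and 11.7 ± 0.931 FPKM, and the log2 difference was 0.09 ± 0.09 (95% interval -0.12 to 0.30; limma adjusted p = 0.663), and this was the narrowest interval of the 8 genes. On a linear scale it spans 0.919-fold to 1.23-fold.

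Cacna1a, the P/Q-type pore (ENSMUSG00000034656, chromosome 8, 84388440 to 84640246, plus strand), lies 27.9 Mb from Cntnap4 on the same chromosome. It stood at 9.61, 8.39 and 8.56 FPKM across WT replicates 1 to 3 and at 8.58, 11.2 and 9.18 FPKM across KO replicates 1 to 3. Only KO replicate 2 lay above the WT range. Group means were 8.86 ± 0.662 and 9.66 ± 1.39 FPKM. The log2 difference of 0.11 ± 0.11 (95% interval -0.15 to 0.38; limma adjusted p = 0.659) was 0.01 without KO replicate 2.

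Cacna1e, the R-type pore (ENSMUSG00000004110, chromosome 1, 154390731 to 154884501, minus strand), had the largest spread among KO libraries, an SD of 24.4% of the KO mean. It stood at 10.8, 8.64 and 8.55 FPKM across WT replicates 1 to 3 and at 9.40, 14.5 and 10.04 FPKM across KO replicates 1 to 3. KO replicate 2 was far above the others, and KO replicates 1 and 3 lay within the WT range. The means were 9.34 ± 1.28 and 11.3 ± 2.75 FPKM. The log2 difference was 0.25 ± 0.17 (95% interval -0.16 to 0.65; limma adjusted p = 0.531), and 0.06 without KO replicate 2. Together the Cav2 genes made up 46.9% ± 0.508 of the family's summed FPKM in WT and 45.8% ± 1.25 in KO.

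The L-type genes were the least abundant per length. Cacna1c, the Cav1.2 pore (ENSMUSG00000051331, chromosome 6, 118587240 to 119196418, minus strand), stood at 3.995, 3.26 and 3.53 FPKM across WT replicates 1 to 3 and at 3.79, 5.61 and 4.39 FPKM across KO replicates 1 to 3. KO replicates 2 and 3 lay above all WT libraries and KO replicate 1 lay below WT replicate 1. Group means were 3.60 ± 0.370 and 4.60 ± 0.927 FPKM. The log2 difference was 0.30 ± 0.14 (95% interval -0.04 to 0.64; limma adjusted p = 0.373), with 0.16 when KO replicate 2 was left out and 0.42 when KO replicate 1 was. Cacna1d, the Cav1.3 pore, which activates at more negative voltages than Cav1.2 (ENSMUSG00000015968, chromosome 14, 30039939 to 30491455, minus strand), stood at 3.82, 3.48 and 3.19 FPKM across WT replicates 1 to 3 and at 3.32, 4.08 and 4.02 FPKM across KO replicates 1 to 3. The groups overlapped, with means of 3.50 ± 0.316 and 3.81 ± 0.427 FPKM, and the log2 difference was 0.11 ± 0.11 (95% interval -0.15 to 0.37; limma adjusted p = 0.673). The remaining L-type pore genes were near the floor in every library, Cacna1s, the skeletal muscle pore, at 0.0702 to 0.236 FPKM and Cacna1f, the retinal pore, at 0.0176 to 0.0709 FPKM.

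Summed over the 8 genes, the pore transcripts came to 62.2 ± 5.71 FPKM in WT and 71.3 ± 9.47 in KO, with overlap. The L-type pair made up 11.4% ± 0.144 of this sum in WT and 11.8% ± 0.526 in KO, and the shares of all 3 branches overlapped between the groups. Cacna1i took 14.4% to 15.9% of the sum in the WT libraries and 16.2% to 17.9% in the KO libraries. Cacna1c took 5.60% to 5.94% in WT and 5.98% to 6.86% in KO. Cacna1a took 13.99% to 14.4% in WT and 13.4% to 13.7% in KO. Cacna1b took 17.45% to 18.1% in WT and 15.6% to 17.40% in KO. The shares of Cacna1d, Cacna1e, Cacna1g and Cacna1h overlapped between the groups. These shares of a sum depend on one another and were not tested.

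**Figure D3:**
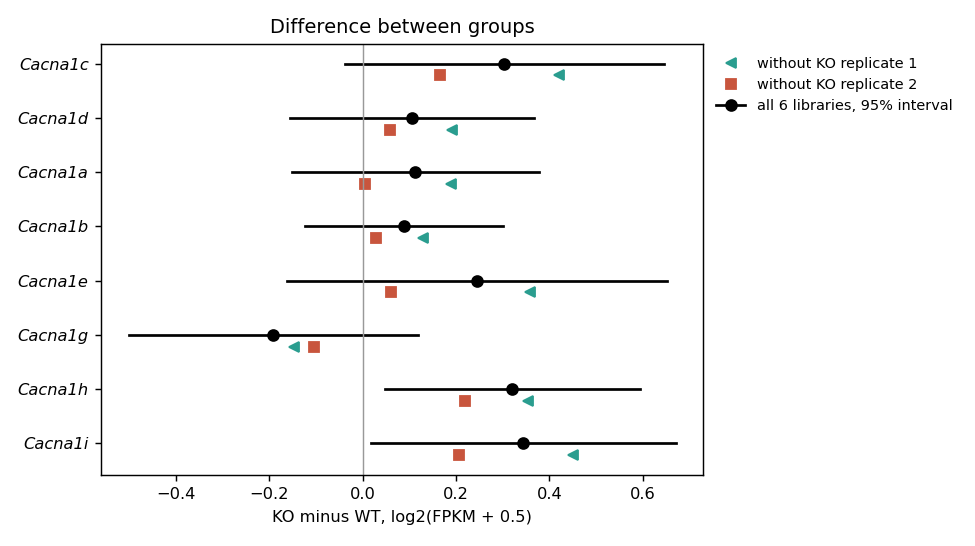
Log2 difference (KO minus WT) of each pore gene with its 95% interval from limma, beside the value without KO replicate 1 and without KO replicate 2. Each of the 8 differences lies closer to 0 without KO replicate 2, and the intervals of Cacna1h and Cacna1i exclude 0 before adjustment over all genes.

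Within each group, 1 library set the top of most genes. WT replicate 1 was the highest WT library for 8 of 8 pore genes, where it was highest for 32.8% of all genes tested. KO replicate 2 was the highest KO library for 7 of 8, where it was highest for 39.6% of all genes, and KO replicate 1 was the lowest for 6 of 8 (35.9% of all genes). Relative to the mean of KO replicates 1 and 3, KO replicate 2 was higher by a log2 difference of 0.55 for Cacna1e, 0.42 for Cacna1c, 0.41 for Cacna1i, 0.32 for Cacna1a, 0.30 for Cacna1h, 0.18 for Cacna1b and 0.14 for Cacna1d, while Cacna1g differed by -0.26. The median of this deviation over all genes tested was 0.01, with 95% of genes below 0.50. Cacna1e alone of the 8 lay above that value. Genes of a family share their libraries, so these deviations are not independent of one another.

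Markers of cell types and brain regions also differed between the groups and between libraries. The 9 excitatory neuron markers summed to 357 to 418 FPKM in WT and 613 to 891 in KO, with the highest sum in KO replicate 2. Most of each sum came from Nrgn and Camk2a. For 8 of the 9, KO values were all above WT, as for 11.8% of all genes tested. The exception, Slc17a6, was at 15.5, 17.0 and 13.5 FPKM across WT replicates 1 to 3 and at 11.8, 5.40 and 15.3 across KO replicates 1 to 3. The 8 markers of medium spiny neurons, which project from the striatum, summed to 768 to 1031 FPKM in WT and 1100 to 1563 in KO, again highest in KO replicate 2. For both lists WT replicate 1 had the highest sum among WT libraries, and it was also the highest WT library for the pore genes. The 11 hypothalamic and thalamic markers summed to 528 to 985 FPKM in WT and to 1110, 22.1 and 366 FPKM in KO replicates 1 to 3. Avp and the oxytocin gene Oxt held 91.3% to 96.4% of that sum in all libraries but KO replicate 2. Without them the other 9 markers summed to 35.8 to 45.8 FPKM in WT and to 47.9, 19.8 and 28.6 FPKM in KO replicates 1 to 3. All 10 tested markers of this list had a negative log2 difference, where 51.5% of all genes tested were higher in KO. For 2 of them, Zic1 and Tcf7l2, KO values were all below WT, as for 10.8% of all genes tested. The 8 oligodendrocyte markers summed to 1203 to 1586 FPKM in WT and 715 to 1067 in KO. The 4 cholinergic markers summed to 63.4 to 64.8 FPKM in WT and to 46.8, 30.0 and 31.9 in KO replicates 1 to 3. The summed GABAergic neuron markers overlapped (650 to 770 FPKM in WT and 737 to 865 in KO). Single markers of these 8 lay apart in both directions, Npy and Vip with KO above WT and Gad2 and Lhx6 with KO below. Of all genes tested, 11.8% had KO above WT and 10.8% had KO below. Astrocyte sums overlapped (274 to 325 and 229 to 296 FPKM), as did endothelial and mural cell sums (85.8 to 129 and 95.7 to 103). Microglial sums overlapped too (187 to 203 and 161 to 199 FPKM). KO lay below WT for 2 of 6 markers, Cx3cr1 and Tmem119, as for 10.8% of all genes tested. Choroid plexus and meningeal markers summed to 30.2 to 34.3 FPKM in WT and 5.39 to 23.2 in KO. Without Ttr, which made up most of the WT sums, the other 4 summed to 3.27 to 7.05 FPKM in WT and 4.497 to 4.89 in KO. No marker was at 0 in all libraries, and Folr1, of the choroid plexus list, was at 0 in KO replicate 2. The part of these markers in the differences of the pore genes was not tested.

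**Figure D4:**
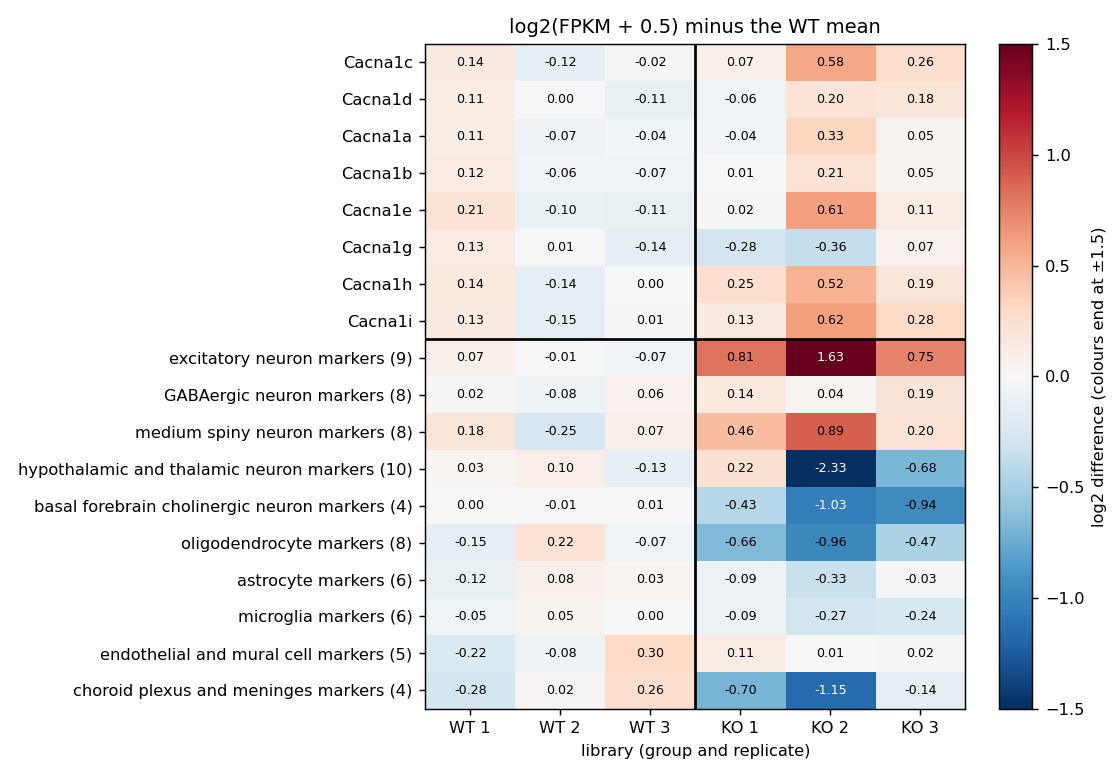
Rows give log2(FPKM + 0.5) minus the WT mean for each pore gene (top) and for the mean over each marker list (bottom, number of tested markers in brackets); columns are the 6 libraries. In KO replicate 2 the 7 pore genes other than Cacna1g are 0.20 to 0.62 above the WT mean, beside 1.63 for excitatory neuron markers and -0.96 for oligodendrocyte markers.

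Of the auxiliary subunit genes, 8 of 10 were abundant enough to test, and 0 passed after adjustment (limma), with 2 higher in KO at an unadjusted p under 0.05, where 8.36% of all genes tested were. Their median log2 difference was 0.19. Cacnb3, a cytoplasmic beta subunit that traffics Cav2 pores, stood at 29.0, 26.3 and 25.1 FPKM across WT replicates 1 to 3 and at 36.6, 55.4 and 36.6 FPKM across KO replicates 1 to 3. All KO libraries lay above all WT libraries, as for 11.8% of all genes tested (log2 0.64 ± 0.17, limma adjusted p = 0.210). Cacnb1 did so too, at 25.7, 19.98 and 20.2 FPKM across the WT libraries and 27.8, 34.7 and 27.9 across the KO libraries (log2 0.45 ± 0.13, limma adjusted p = 0.229). KO replicate 2, the highest library for both, was also the one with the highest sum of excitatory neuron markers, whose part in these differences was not tested. For the beta subunits Cacnb2 and Cacnb4 the groups overlapped, with log2 differences of 0.20 and 0.07. The alpha2delta genes, whose products include the gabapentin receptors, stood at 0.01 for Cacna2d1, -0.07 for Cacna2d2 and 0.19 for Cacna2d3 on the log2 scale, each with overlap. Cacna2d4 was too low to test, at 0.364 to 0.446 FPKM in WT and 0.298 to 0.359 in KO, with KO below WT. Cacng1, a gamma subunit known from skeletal muscle, was at 0.405 to 0.724 FPKM (log2 0.22).

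**Figure D5:**
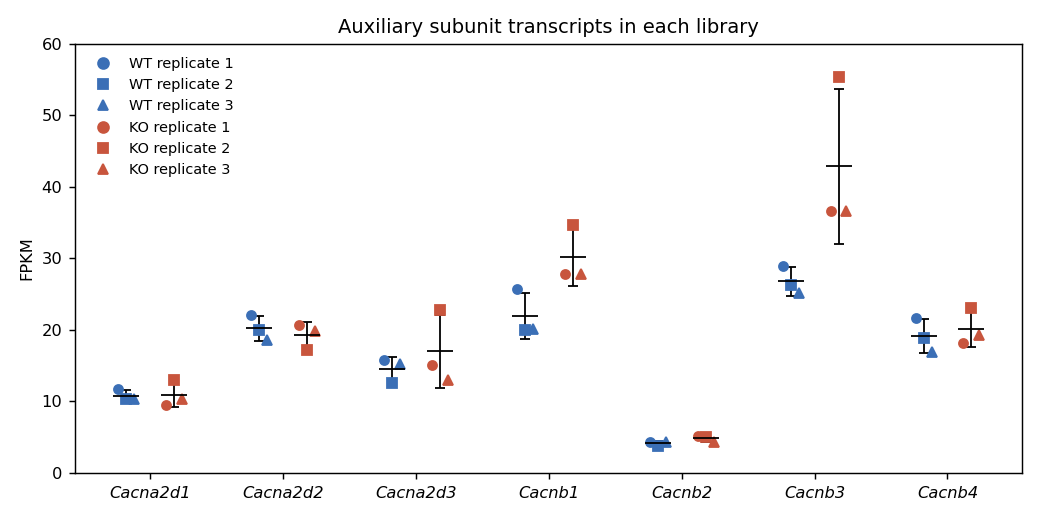
FPKM of the 7 auxiliary subunit genes that average 1 FPKM or more, in each library; bars are group means with SD (n = 3 per group). The KO libraries lie above the WT libraries for Cacnb1 and Cacnb3, and KO replicate 2 is the highest library for 5 of the 7 genes.

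Genes that work beside the pores were read from lists, and 0 members passed after adjustment in any of them (limma). Of 24 active zone and channel tethering genes, 3 were higher and 1 lower at an unadjusted p under 0.05, with a median log2 difference of 0.13. The smallest p came from Unc13c, a vesicle priming factor, at 31.1, 42.2 and 37.9 FPKM across the WT libraries and 24.9, 19.1 and 26.3 across the KO libraries (log2 -0.65 ± 0.15, adjusted p = 0.205). Stx1a, the syntaxin that binds N- and P/Q-type channels, stood at 13.7, 12.4 and 12.8 FPKM across WT replicates 1 to 3 and at 19.5, 46.6 and 19.6 FPKM across KO replicates 1 to 3 (log2 0.99 ± 0.32, adjusted p = 0.263). Calmodulin gene Calm2 had a log2 difference of 0.26. For Unc13c, Stx1a and Calm2 the groups did not overlap and KO replicate 2 was the most extreme library. Of the 24 genes, 4 had KO above WT and 2 had KO below, where 11.8% and 10.8% of all genes tested did.

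Of 18 genes for calcium stores and clearance, 3 were higher and 0 lower at that level, with a median of 0.03. Slc8a2, a sodium-calcium exchanger of neurons, stood at 33.1, 25.2 and 31.6 FPKM across WT replicates 1 to 3 and at 43.1, 68.0 and 42.1 FPKM across KO replicates 1 to 3 (log2 0.73 ± 0.20, adjusted p = 0.223). All KO libraries lay above WT for 3 of the 18 genes, Slc8a2, Atp2a3 and Atp2b2, as for 11.8% of all genes tested. The plasma membrane calcium pump gene Atp2b4 (0.55) and the endoplasmic reticulum pump gene Atp2a3 (0.28) had the next smallest p. Of 6 tested calcium-activated potassium channel genes, 0 were higher and 1 was lower, with a median of 0.05. This was Kcnmb2, an auxiliary subunit of large-conductance channels that open with calcium entry, at 1.39, 1.33 and 1.24 FPKM across the WT libraries and 0.680, 0.777 and 1.01 across the KO libraries (log2 -0.47 ± 0.14, adjusted p = 0.241). Kcnmb4 (-0.34) and Kcnma1 (0.26) followed. For comparison, 8.36% of all genes tested were higher and 6.85% lower in KO at an unadjusted p under 0.05.

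The sources used here do not say whether the authors' counting used strand, and 3 pore genes overlap expressed genes on the opposite strand at their ends or within them. Cacna1c shares its edge with Dcp1b, which had 354 to 442 reads per library against 1244 to 2152 for Cacna1c. Cacna1d overlaps Dcp1a (441 to 544 reads) and Chdh (113 to 170 reads). Cacna1a contains the antisense model Gm16183, which had 13 to 27 reads. Reads in the shared stretches cannot be assigned with certainty.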

How the data were processed

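RNA was sequenced from 3 WT and 3 KO samples, with libraries from a SMARTer mRNA kit per the labels' protocols. The authors deposited 1 table of FPKM values. The build was GRCm38, also written mm10, per the submitters' processing notes. The sources used here do not give the aligner, counting program or annotation release. Gene length is in the deposited table. All 6 sample columns were matched by name, with 0 left over. FPKM times gene length came out within 0.01 of whole reads for 100% of nonzero values. Median-ratio size factors of the deposited FPKM were 1.00 in every library. The deposited values thus appear to be scaled by such factors already, not by reads in genes alone.

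The 16155 genes averaging 0.5 FPKM or more were tested with limma-trend and robust empirical Bayes (limma 3.58.1, R 4.3.3) on log2(FPKM + 0.5), which understates changes of low genes, with Benjamini-Hochberg adjustment and a threshold of 0.05. Intervals are limma's, unadjusted. The script was tested on simulated data. Named were all 8 members, tested auxiliary subunits, other pore genes, the 3 smallest p per remaining list, the 3 most alike genes per member, Cntnap4 and sex-linked genes. Avp, Oxt, Slc17a7, Rspo2, Npy, Vip, Gad2, Lhx6, Cx3cr1, Tmem119, Ttr, Folr1, Cacna2d4 and the overlapping genes were named after their values were seen. So were Scarna17, Gm44455, Slc17a6, Nrgn and Camk2a. Members and lists were chosen with earlier results of these data known. Alternatives changed the pseudocount, filter, scaling, variance model, weights, block, method and libraries. Counts over the pore genes under these settings, likeness without KO replicate 2, and marker sums without Avp, Oxt or Ttr were added after seeing the data.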

Additional observations from a re-analysis of the deposited data

How the results depend on the processing

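All 8 pore genes kept the direction of their difference and stayed above the adjusted threshold in all 134 alternative values (lowest limma adjusted p 0.214, highest 0.984). The filter at a mean of 5 FPKM left out Cacna1c and Cacna1d. The setting with median-ratio size factors divides every library by the same factor, so it nearly repeats the main fit by construction. Leaving out 1 library gave log2 differences of 0.01 to 0.19 for Cacna1a, 0.03 to 0.15 for Cacna1b, 0.16 to 0.42 for Cacna1c, 0.05 to 0.19 for Cacna1d, 0.06 to 0.36 for Cacna1e, -0.32 to -0.10 for Cacna1g, 0.22 to 0.39 for Cacna1h and 0.21 to 0.45 for Cacna1i. The number of pore genes whose groups did not overlap was 1 without WT replicate 2, WT replicate 3 or KO replicate 2. Over all genes, 29.0%, 36.3% and 33.4% did not overlap in these settings. The number was 6 without WT replicate 1 (32.6% of all genes), 4 without KO replicate 1 (33.2%) and 2 without KO replicate 3 (32.7%). Cacna1h was among them each time. The number with an unadjusted p under 0.05 (limma) was 0 without WT replicate 2 (9.41% of all genes), WT replicate 3 (13.7%) or KO replicate 2 (13.3%). It was also 0 after rescaling to an equal FPKM sum (12.3% of all genes).

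Over all genes, 2 passed the adjusted threshold. The count was 0 with a pseudocount of 0.1, with no filter, with a filter at 5 FPKM and with voom, 1 with quantile normalization, 5 after rescaling to an equal sum, and 0 to 9 when 1 library was left out, the 9 without KO replicate 1. The cause was not tested. At an adjusted p under 0.1 the count stayed at 2. With the replicate number as a block, 0 genes passed and 0 pore genes had an unadjusted p under 0.05 (10.3% of all genes tested). Same-numbered libraries did not deviate together (r across genes -0.09, -0.14 and -0.07), and WT replicate 1 and KO replicate 2 had 0.12. With so few libraries per group, these values cannot show whether the numbers pair the samples. Each pore gene had at least 787 reads per library, and counting error was smaller than the spread between WT libraries for all 8.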

Other observations

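For each pore gene, the 3 named protein-coding genes with the most similar pattern over the 6 libraries were found among 11920 genes by Pearson's r of log2(FPKM + 0.5). With 6 libraries high values are common, and these are descriptions with no test. Cacna1i was nearest to Atg16l1 (r = 1.00), Celf1 (r = 1.00) and Pcdh1 (r = 0.99), and Cacna1c to Pcdh1 (r = 1.00), Celf1 (r = 1.00) and Cacna1i itself (r = 0.99). Pcdh1 and Celf1 were thus among the nearest for both an L-type and a T-type pore gene, and Cacna1c and Cacna1i ranked the 6 libraries in the same order. Without KO replicate 2 their r was 0.98. Cacna1h was nearest to Dlg4 (r = 0.99), which encodes the postsynaptic scaffold PSD-95, then Pcnx2 and Mkl1 (r = 0.99 each). Cacna1e was nearest to Frrs1l (r = 1.00), which encodes an AMPA receptor assembly factor, to the axon guidance receptor gene Robo2 and to Klhl34 (r = 0.99 each). Cacna1a was nearest to Filip1 (r = 1.00), Tmcc1 and Gpr26 (r = 0.99 each), and Cacna1b to Clasp1 (r = 1.00), Klhl29 and Runx1t1 (r = 0.99 each). Cacna1d was nearest to the potassium channel partner gene Dpp10, the contactin gene Cntn4 and Prdm2 (r = 0.97 each).

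Cacna1g was nearest to Ccdc85a, Pitpnc1 (r = 0.98 each) and Ston2 (r = 0.97). Only 19 genes had an r above 0.95 with Cacna1g and 23 with Cacna1d, against 69 to 314 for the other 6 pore genes. The values of r without KO replicate 2 were 0.94 to 1.00 over the 24 pairs.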
